A study of Mus musculus with 60 samples.

Results

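The genes described here act in apoptosis and in the p53 response. A list of 42 such mouse genes was matched by annotated symbol, or by current symbol through the Entrez identifier, to the probes of 2 spotted array parts. Of these, 39 had a probe, and 30 were measured in enough cultures to be tested, out of 8108 named genes tested in the whole data set. By known role, 26 of the 42 promote cell death and 8 promote survival. The other 8 are Trp53 itself or genes of growth arrest or stress response that p53 or cellular stress can induce. The tested genes were 18, 5 and 7 of these classes. Trp53, Bax and Ripk1 were not analysed here.

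The arrays compared total RNA of 5 mouse cell lines, labelled with OPMD, which stands for oculopharyngeal muscular dystrophy. In patients this muscle disorder follows from extra alanines in PABPN1, the nuclear poly(A)-binding protein. Wild-type Pabpn1 was carried by WTA, with a level given as high, and by WTD, with a low one. D7E and D7F carried mutant Pabpn1, labelled high for D7E and low for D7F, and IM2 was not transfected. Each combination of genotype and level was 1 line, so a difference between genotypes or levels cannot be told apart from a difference between lines. The labels used here state neither the mutation, nor the promoter of the transgene, nor the tissue of the lines. Each line had 3 cultures, and the labels do not say how independent these were, so the p-values measure only the spread between cultures of a line. Every culture was hybridised against 1 common IM2 reference with both dye orientations on each part, on 60 arrays in all.

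Apoptosis runs along connected routes. Death receptors such as Fas and the tumour necrosis factor receptor Tnfrsf1a recruit adaptors and activate initiator caspases at the cell membrane. In the mitochondrial route, the balance between death-promoting and survival proteins of the Bcl2 family decides whether cytochrome c, Diablo and Aifm1 leave the mitochondria, and Apaf1 then assembles the apoptosome. The transcription factor p53, held low by Mdm2, induces genes of both routes after DNA damage and also genes of growth arrest or stress response, such as Ccng1, Sesn1 and Gadd45a. PABPN1 with an expanded alanine stretch forms aggregates in muscle nuclei, and cell death has been studied as one of its effects in models of OPMD.

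All values are log2 ratios of culture over the IM2 reference, and a log2 difference is the difference between mean log2 ratios. The deposited ratios carry no unit and were read as log10, because they stop at -2 and 2, so sizes hold only if that base is right, while signs and calls do not depend on it. Pabpn1 itself averaged a log2 ratio of 2.19 ± 0.29 in WTA, 1.43 ± 0.07 in WTD, 1.61 ± 0.14 in D7E cultures and 0.92 ± 0.11 in D7F cultures, against -0.18 ± 0.06 in IM2 cultures (SD, n = 3 each). For Pabpn1 the ratio was above 0 on 24 of 24 arrays that held transfected cultures on part I, in both dye orientations. Ndrg1 was negative on 24 of 24 such arrays on either part, so the ratios of both parts were read as culture over reference. Quality differed between arrays: on part I 81.4% to 99.9% of rows were filled and 0.737% to 31% of the filled values lay at a limit, and for part II these shares were 41.4% to 99.4% and 2.99% to 35.7%. Of 9 arrays of low quality (over 20% of filled values at a limit or under 70% of rows filled), 5 were of IM2, both of culture 1 on part I and 1 of each culture on part II. The 2 dye orientations of a culture correlated across probes with r = -0.099 to 0.255 in transfected cultures but -0.346 to -0.170 in IM2 cultures on part I, and -0.003 to 0.185 and -0.098 to 0.009 on part II. The check by Pabpn1 and Ndrg1 covers arrays of transfected cultures only, and the direction of the IM2 arrays could not be checked. With the sign of all IM2 ratios turned, 9 of the 30 tested genes changed the sign of their difference from IM2, none of them called in any comparison, and Apaf1 was then called lower. The lowest correlation between arrays of 1 orientation was -0.236 with limit values left out (IM2 culture 1 and D7E culture 3, part I) and -0.478 with them kept. Precision is limited by how many arrays there are.

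The first comparison asked how the 4 transfected lines together differed from IM2. Of the 30 tested genes, 6 passed an adjusted p of 0.05 (20%), set against 15.2% of all probes. Pdcd4, Aifm1 and Sesn1 were higher in the transfected lines and Tnfrsf1a, Gadd45b and Casp6 were lower, with 6.4% of all probes called higher and 8.83% called lower. None of these 6 genes had a transfected culture that overlapped an IM2 culture. They were picked by the same comparison, and the share of all probes without overlap was not counted, so this is no separate support. The median log2 difference over the 30 genes was -0.03, against 0.03 over all probes, and 15 genes had a positive and 15 a negative difference. Death-promoting genes went both ways: 2 of 18 were higher, 2 were lower and their median was -0.12. None of the 5 tested survival genes passed limma's test, and none had an unadjusted p under 0.05, beside 2977 of 9720 probes that did. In whole cultures, fewer cells that express a gene and less of its RNA per cell cannot be told apart.

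**Figure D1:**
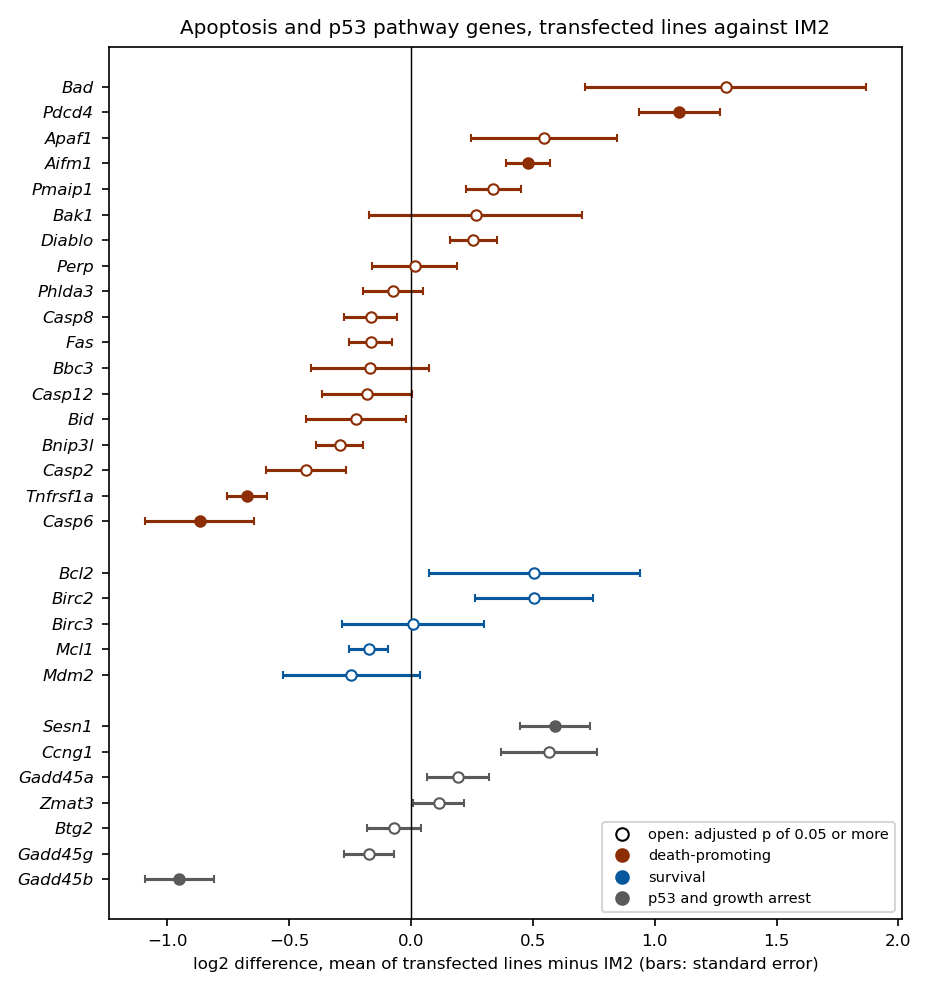
Log2 difference between the mean of the 4 transfected lines and IM2 for the 30 tested genes, one row per gene, grouped as death-promoting, survival, and p53 and growth arrest. Points are fitted differences and bars standard errors. Filled points passed an adjusted p of 0.05 and open points did not. Filled points lie on both sides of 0, from Gadd45b at -0.95 to Pdcd4 at 1.10.

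Tnfrsf1a, the main receptor for tumour necrosis factor, was lower in every transfected line. Its log2 ratios were -1.00, -0.77 and -0.91 in WTA, -0.75, -0.69 and -0.68 in WTD, -0.73, -0.83 and -0.81 in D7E, -0.51, -0.54 and -0.80 in D7F cultures, against -0.07, -0.13 and -0.03 in IM2 cultures. All 12 transfected cultures lay below all IM2 cultures. The log2 difference was -0.67 (SE 0.08, adjusted p = 0.0003336), which is 1.59-fold lower. Both dye orientations gave the same sign in 12 of 12 transfected cultures, and the call held under all 27 other settings run. Fas, the receptor of Fas ligand, split the lines instead. Its log2 ratios were -0.08, 0.28 and 0.15 in WTA, -0.33, -0.53 and -0.44 in WTD, -0.35, -0.36 and -0.39 in D7E, -0.08, 0.04 and -0.03 in D7F cultures, against 0.09, -0.04 and -0.09 in IM2 cultures. WTD and D7E were low, whereas WTA and D7F lay around the IM2 cultures, so the log2 difference of the transfected lines from IM2 was -0.17 (SE 0.09, adjusted p = 0.2154). Fadd, the adaptor of Fas, was not tested, with values of -0.44 to 0.69 in 9 transfected cultures and 0.10 to 0.52 in 2 IM2 cultures.

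Among the caspases, the proteases that carry out apoptosis, Casp6 passed the test. Casp6, an executioner caspase known for cleaving nuclear lamins, had log2 ratios of -0.71, -0.25 and -0.65 in WTA, -0.43, -0.71 and -1.07 in WTD, -0.84, -1.93 and -0.75 in D7E, -0.50, -0.74 and -0.57 in D7F cultures, against 0.37, 0.06 and -0.12 in IM2 cultures. Every transfected culture lay below every IM2 culture, with D7E culture 2 lowest. The log2 difference was -0.87 (SE 0.22, adjusted p = 0.02259), 1.82-fold lower. IM2 culture 1, whose part I arrays were both of low quality, was the highest culture. Without it the difference was -0.73 (adjusted p = 0.1029), without the arrays of low quality -0.72 (adjusted p = 0.1291), and with all IM2 ratios turned in sign -0.66 (adjusted p = 0.06001). The initiator caspases Casp2 and Casp8 had differences of -0.43 (SE 0.16, adjusted p = 0.09742) and -0.17 (SE 0.11, adjusted p = 0.3233), and Casp12, a caspase of the endoplasmic reticulum in mice, had -0.18 (SE 0.18, adjusted p = 0.5389). Apaf1, the scaffold of the apoptosome, had 0.55 (SE 0.30, adjusted p = 0.2477), against -1.32 (adjusted p = 0.01444) with the IM2 sign turned and -0.39 (adjusted p = 0.02508) against the IM2 reference itself. Its dye orientations had the same sign in 3 of 10 transfected cultures. Casp9, the caspase that Apaf1 activates, was not tested and ranged from -1.82 to 1.63 in 9 transfected cultures. Casp1, which processes inflammatory cytokines, was measured in 1 transfected culture.

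Of the mitochondrial death factors, Aifm1 was higher in the transfected lines. Aifm1 encodes apoptosis-inducing factor, a mitochondrial flavoprotein that can move to the nucleus and also serves the respiratory chain. It had log2 ratios of 0.50, 0.68 and 0.46 in WTA, 0.36, 0.21 and 0.31 in WTD, 0.43, 0.30 and 0.50 in D7E, 0.29, 0.45 and 0.41 in D7F cultures, against -0.18, 0.11 and -0.14 in IM2 cultures. The 12 transfected cultures all lay above the IM2 cultures, by a log2 difference of 0.48 (SE 0.09, adjusted p = 0.004383). The sign was the same in both dye orientations in 12 of 12 transfected cultures, and Cy5 arrays alone ended the call (0.40, adjusted p = 0.07628). Diablo, which relieves the inhibition of caspases, had a difference of 0.26 (SE 0.10, adjusted p = 0.09689), its values running from 0.10 to 0.56 in transfected and from 0.09 to 0.13 in IM2 cultures, so the groups overlapped.

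No gene of the death-promoting Bcl2 family passed the test in this comparison, with 6 tested and a median log2 difference of 0.05. Of these, 3 had an unadjusted p under 0.05, beside 2977 of 9720 probes. Pmaip1, which encodes the p53-inducible protein Noxa, divided the transfected lines. Its log2 ratios were -0.22, -0.10 and -0.11 in WTA, 0.47, 0.56 and 0.81 in WTD, 0.47, 0.74 and 0.94 in D7E, 0.22, 0.51 and 0.44 in D7F cultures, against -0.07, 0.03 and 0.21 in IM2 cultures. The 3 WTA cultures were the lowest of the transfected cultures, and every culture of WTD, D7E and D7F lay above every IM2 culture. Over the 4 lines the difference was 0.34 (SE 0.11, adjusted p = 0.06392), and leaving out D7E culture 1 brought it to 0.37 (adjusted p = 0.03504). Bnip3l, a mitochondrial protein of mitophagy and cell death, had -0.29 (SE 0.10, adjusted p = 0.05707). Bad, which binds survival proteins of the family, had the widest difference at 1.29 (SE 0.58, adjusted p = 0.1522), with an IM2 range of -3.58 to 0.00 set by IM2 culture 1 at the low end, and -1.34 with the IM2 sign turned. Bid, Bak1 and Bbc3 (Puma) had -0.23, 0.27 and -0.17, with adjusted p-values of 0.4848 to 0.7209. Bcl2l11 (Bim) was not tested, with -0.78 to 0.28 in 8 transfected cultures and -0.23 to -0.21 in 2 IM2 cultures.

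Pdcd4 showed the largest called difference among the listed genes. It encodes a protein that binds the helicase eIF4A and restrains translation, and was named for its rise in dying cells. Its log2 ratios were 1.90, 0.95 and 1.72 in WTA, 0.32, 0.15 and 0.31 in WTD, 0.90, 1.02 and 1.26 in D7E, 0.52, 0.85 and 0.51 in D7F cultures, against -0.22, -0.12 and -0.36 in IM2 cultures. All transfected cultures lay above all IM2 cultures, WTA was highest and WTD lowest among the transfected lines. The log2 difference was 1.10 (SE 0.17, adjusted p = 0.001293), 2.14-fold higher. Both dye orientations had the same sign in 11 of 12 transfected cultures. With Cy3 arrays alone the call ended, at 0.84 (adjusted p = 0.07682). Pdcd6, a calcium-binding protein also named for cell death, was not tested and ranged from -1.05 to 1.03 in 6 transfected cultures.

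The survival genes Bcl2 and Mcl1, which hold the death-promoting family members in check, had differences of 0.51 (SE 0.43, adjusted p = 0.4626) and -0.17 (SE 0.08, adjusted p = 0.1665). That of Bcl2 was -0.76 with the IM2 sign turned and -0.13 without IM2 culture 1. Mcl1 had log2 ratios of -0.31, -0.49 and -0.27 in WTA, -0.11, -0.20 and -0.03 in WTD, -0.27, -0.13 and -0.18 in D7E, -0.07, 0.10 and -0.04 in D7F cultures, against -0.10, 0.04 and 0.08 in IM2 cultures. Its values overlapped between transfected and IM2 cultures, WTA lay lowest, and the dye orientations had the same sign in 5 of 12 transfected cultures. Birc2 and Birc3, ubiquitin ligases that restrain caspases and signal from tumour necrosis factor receptors, had 0.50 (SE 0.24, adjusted p = 0.1821) and 0.01 (SE 0.29, adjusted p = 0.9898). Mdm2, the ubiquitin ligase that limits p53, had -0.25 (SE 0.28, adjusted p = 0.5915), with -0.70 to 0.59 in transfected and -0.35 to 0.37 in IM2 cultures. Bcl2l1, Xiap and Cflar were measured in too few cultures to be tested. Their transfected values were -0.61 to 1.22 in 6, -2.60 to 0.49 in 5 and -0.55 to 0.46 in 10 cultures.

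Of the 7 genes of growth arrest or stress response, 1 was higher and 1 lower. Gadd45b, a stress gene that NF-kappaB can induce, had log2 ratios of -1.09, -0.93 and -1.15 in WTA, -0.77, -0.81 and -1.17 in WTD, -0.99, -0.93 and -1.06 in D7E, -0.93, -1.01 and -0.93 in D7F cultures, against 0.42, -0.40 and -0.11 in IM2 cultures. All 4 transfected lines were low, no culture overlapped the IM2 cultures, and IM2 itself was spread widely. The difference was -0.95 (SE 0.14, adjusted p = 0.001252), 1.93-fold lower, with the same sign in both dye orientations in 12 of 12 transfected cultures, and the call held under all 27 other settings. Its relatives Gadd45a and Gadd45g had 0.19 (SE 0.13, adjusted p = 0.3353) and -0.17 (SE 0.10, adjusted p = 0.2727).

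Sesn1, a p53 target that restrains mTORC1, was on part II and had log2 ratios of 0.71, 0.70 and 0.81 in WTA, 0.61, 0.69 and 0.41 in WTD, 0.85, 0.67 and 0.60 in D7E, 0.26, 0.30 and 0.73 in D7F cultures, against 0.05 and -0.01 in IM2 cultures. IM2 culture 3 had no value. The 12 transfected cultures lay above both measured IM2 cultures, by 0.59 (SE 0.14, adjusted p = 0.01626), a call that ended with either dye alone (0.63 each, adjusted p = 0.1291 with Cy3 and 0.108 with Cy5). Leaving out IM2 culture 1 or 2, so that 1 IM2 culture remained, gave 0.62 (adjusted p = 0.1228) or 0.56 (adjusted p = 0.08894), an alternative chosen after seeing the data in which that culture is assumed to vary like the other lines. Ccng1, a p53 target that encodes cyclin G1, had log2 ratios of 0.54, 0.61 and 1.40 in WTA, 0.52, 0.11 and 0.11 in WTD, 0.33, 0.48 and 0.67 in D7E, 0.11, 0.44 and 0.83 in D7F cultures, against -0.02, 0.18 and -0.32 in IM2 cultures. WTA culture 3 was the highest value and the transfected cultures overlapped IM2 at the low end. Its difference was 0.57 (SE 0.20, adjusted p = 0.07054), and 0.50 without WTA culture 3 (adjusted p = 0.04703). Zmat3 and Btg2, p53 targets that act on RNA, had 0.11 (SE 0.10, adjusted p = 0.5016) and -0.07 (SE 0.11, adjusted p = 0.7078). The death-promoting p53 targets Perp, a desmosomal membrane protein, and Phlda3, an inhibitor of Akt, had 0.01 (SE 0.18, adjusted p = 0.9658) and -0.07 (SE 0.12, adjusted p = 0.7218). Trp53inp1, a stress protein induced by p53, was not tested, with -0.74 to 0.33 in 6 transfected cultures and 0.86 in 1 IM2 culture.

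**Figure D2:**
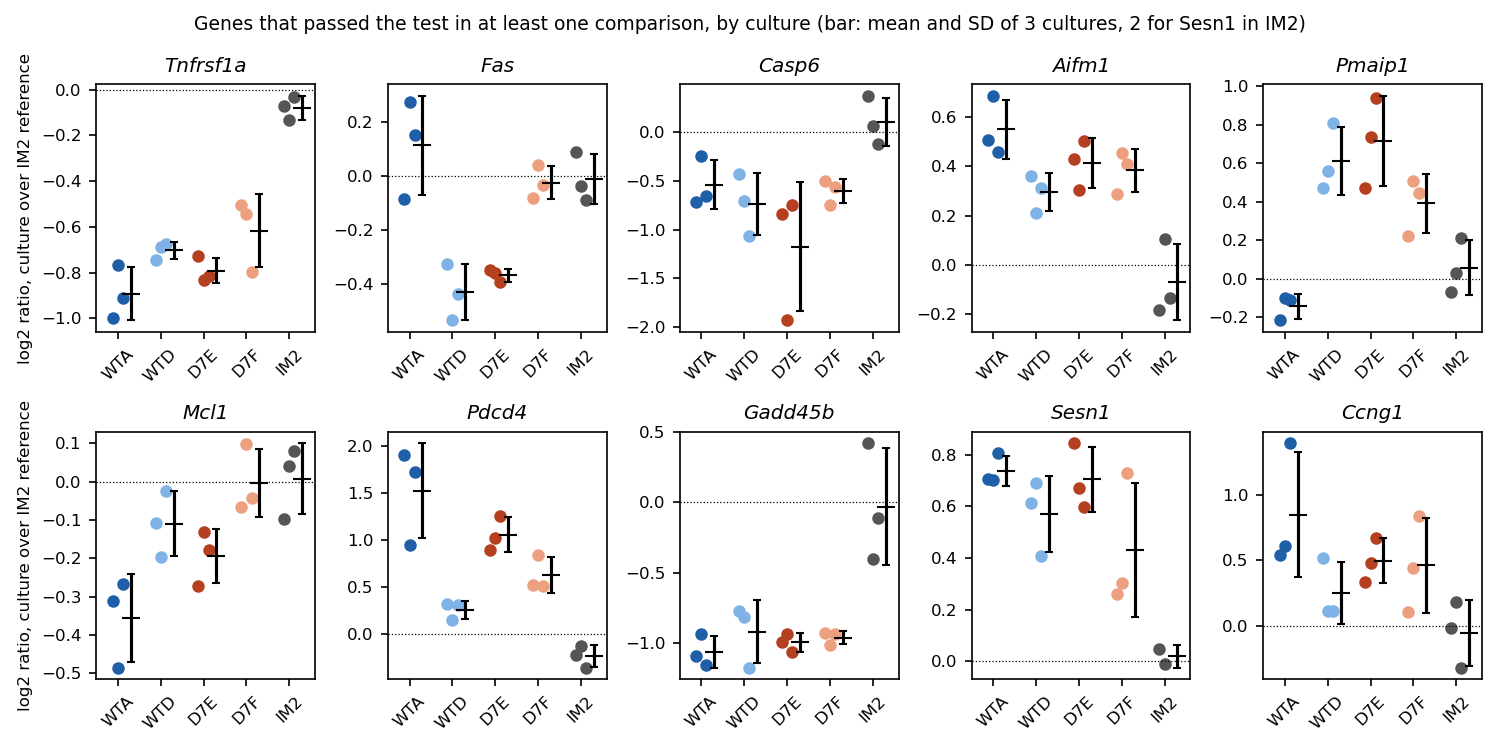
Log2 ratio of culture over IM2 reference for the 10 genes that passed the test in at least one comparison, with 1 point per culture and, beside the points, the mean and SD of each line. Lines run from WTA, WTD, D7E and D7F to IM2 on each horizontal axis, and the vertical scales differ. Tnfrsf1a, Casp6 and Gadd45b lie below IM2 in every transfected culture, Aifm1, Pdcd4 and Sesn1 above it, while Fas lies at -0.53 to -0.33 in WTD and D7E and Pmaip1 lies below 0 in WTA.

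Because several of these genes are known p53 targets, the promoter windows of 300 bases (250 before to 50 after the start, RefSeq, GRCm38.p6) were searched on both strands for the p53 core motif, the decamer that a full p53 response element holds as a pair. Of the 42 genes, 37 had a window and 7 of these held the motif (Bax, Birc2, Trp53, Mdm2, Gadd45a, Ccng1 and Sesn1), beside 9.6% of 27025 genes. Of the 9 genes called in any comparison that had a window, 2 held it. The stretches around the match of 4 tested p53 targets are shown, 5′ to 3′ on the gene's strand, with the matched decamer in capitals.
Mdm2, chr10:117710890-117710989 (minus strand): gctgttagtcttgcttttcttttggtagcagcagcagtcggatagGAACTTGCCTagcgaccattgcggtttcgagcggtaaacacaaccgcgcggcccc
Gadd45a, chr6:67037408-67037492 (minus strand): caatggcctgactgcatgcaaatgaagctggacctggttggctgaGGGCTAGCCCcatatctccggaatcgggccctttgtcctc
Ccng1, chr11:40755417-40755516 (minus strand): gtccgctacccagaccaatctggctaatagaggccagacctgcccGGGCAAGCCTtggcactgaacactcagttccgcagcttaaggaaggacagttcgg
Sesn1, chr10:41887221-41887320 (plus strand): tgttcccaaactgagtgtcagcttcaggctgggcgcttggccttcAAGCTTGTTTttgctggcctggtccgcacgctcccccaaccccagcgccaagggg
Ccng1 and Sesn1 are the 2 called genes with a match, while Mdm2, Gadd45a and Birc2 held one and passed no test here. The match of Birc2 lies after the start and is not shown. The matches differ in sequence and in distance from the start, lying 40 bases before it in Gadd45a, 173 in Sesn1, 185 in Ccng1 and 186 in Mdm2. The kappaB motif was found in 4 of the 37 genes with a window (5.1% of all genes), the AP-1 motif TGANTCA in 2 (9.0%) and the GC box GGGCGG in 25 (38.2%). Some genes had several windows, and a gene counted if any of them matched. Birc2 and Sesn1 held the p53 motif in 1 of 2 windows. A match describes the letters of a window and not binding by the factor.

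Line by line against IM2, the 4 comparisons share the IM2 cultures, so their values are given side by side. In WTA 4 genes were higher and 3 lower of 30, with 5.16% of all probes called higher and 6.37% lower (11.5% in all). In WTD 1 gene was higher and 3 lower, with 2.08% of probes higher and 4.95% lower (7.03% in all). In D7E 4 genes were higher and 3 lower, with 4.13% of probes higher and 8.21% lower (12.3% in all). In D7F 2 genes were higher and 2 lower, with 1.58% of probes higher and 2.91% lower (4.5% in all). Tnfrsf1a and Gadd45b were called lower in each of the 4 lines. For Tnfrsf1a the log2 differences were -0.81 for WTA, -0.62 for line WTD, -0.71 for D7E and -0.54 for line D7F (adjusted p = 0.0006181 to 0.01174), and for Gadd45b -1.03, -0.89, -0.96 and -0.93 (adjusted p = 0.003886 to 0.01383). The Gadd45b call in WTD ended without WTD culture 3, at -0.76 (adjusted p = 0.05913). These calls rest on the spread of all 5 lines: with only the compared lines fitted, 1 listed gene was called in WTD, 1 in D7E and 0 in either of the other two. Few probes of any kind passed in that fit. Over all probes the calls were 0 higher and 1 lower in WTA and 30 and 140 in WTD. In D7E they were 31 and 143, and in D7F 3 and 14. Gadd45b then lost its call in all 4 lines (adjusted p = 0.09002 to 0.1562) and Tnfrsf1a in WTA (0.1018), D7E (0.0501) and D7F (0.1493). With arrays centred and scaled, the WTA calls of Tnfrsf1a (-0.57, adjusted p = 0.06853) and Gadd45b (-0.68, adjusted p = 0.05646) ended. Cy5 arrays alone ended the Gadd45b calls in WTD (-0.88, adjusted p = 0.06152) and D7F (-0.82, adjusted p = 0.1018) and that of Tnfrsf1a in D7F (-0.56, adjusted p = 0.0898).

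Pdcd4 was called in WTA at 1.76 (adjusted p = 0.0004497), D7E at 1.29 (adjusted p = 0.002865) and D7F at 0.86 (adjusted p = 0.03893), and had 0.49 in WTD. The D7F call depended on single cultures. It ended without any 1 of D7F cultures 1, 2 and 3 and IM2 cultures 1 and 3, at 0.75 to 0.92 (adjusted p = 0.06664 to 0.1306). It also ended without any 1 of WTD cultures 1, 2 and 3 and D7E culture 2. These do not enter the difference, which stayed at 0.86 while the adjusted p rose to 0.05146 to 0.05508. Aifm1 was called in WTA at 0.62 (adjusted p = 0.004813), D7E at 0.48 (adjusted p = 0.01591) and D7F at 0.45 (adjusted p = 0.04056), with 0.36 in WTD. Its D7E call ended without D7E culture 3 (0.44, adjusted p = 0.05172). Its D7F call ended without any 1 of D7F cultures 1, 2 and 3 and IM2 cultures 1 and 3, at 0.40 to 0.50 (adjusted p = 0.05777 to 0.1269). It also ended without any 1 of WTD cultures 1, 2 and 3, where the difference stayed at 0.45 (adjusted p = 0.05364 to 0.05808). Sesn1 was called in WTA at 0.72 (adjusted p = 0.01794) and D7E at 0.69 (adjusted p = 0.0217), with 0.55 in WTD and 0.41 in D7F, and without D7E culture 1 the D7E difference was 0.61 (adjusted p = 0.06563).

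The remaining calls stood in 1 or 2 lines. Casp6 passed in D7E at -1.28 (adjusted p = 0.01321), with -0.64 in WTA, -0.84 in WTD and -0.71 in D7F. Ccng1 passed in WTA at 0.90 (adjusted p = 0.03587) and Mcl1, the one survival gene called anywhere, in WTA at -0.36 (adjusted p = 0.03873). The Ccng1 call ended without WTA culture 3 (0.63, adjusted p = 0.07927), IM2 culture 1 (0.92, adjusted p = 0.06799) or IM2 culture 3 (0.77, adjusted p = 0.09254), and the Mcl1 call without WTA culture 1 or 2, WTD culture 1, or IM2 culture 2 or 3, at -0.38 to -0.30 (adjusted p = 0.05363 to 0.08664). WTD culture 1 does not enter the Mcl1 difference, which stayed at -0.36 without it. Pmaip1 passed in WTD at 0.55 (adjusted p = 0.03714) and D7E at 0.66 (adjusted p = 0.01213), and Fas in WTD at -0.42 (adjusted p = 0.0386). In WTD, the Pmaip1 call ended without WTD culture 1, 2 or 3 or IM2 culture 1 (0.46 to 0.63, adjusted p = 0.05247 to 0.1341). The Fas call there ended without WTD culture 1, 2 or 3, D7E culture 2, or IM2 culture 1 or 3 (-0.47 to -0.37, adjusted p = 0.05018 to 0.1294). D7E culture 2 does not enter the Fas difference, which stayed at -0.42 without it. Without the arrays of low quality, the D7E calls of Aifm1, Sesn1, Casp6 and Pmaip1 ended too (adjusted p = 0.05136 to 0.06555), and so did the WTA call of Sesn1 (0.76, adjusted p = 0.08702). A call in one line and not in another is no test of a difference between the lines.

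**Figure D3:**
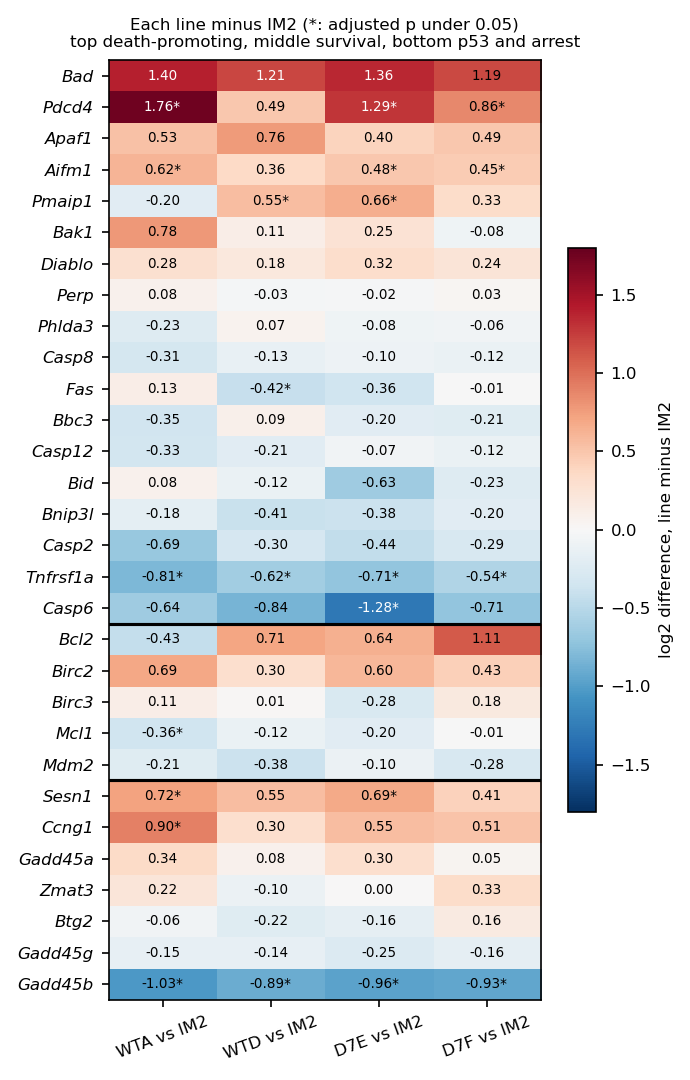
Log2 difference of each transfected line from IM2 for the 30 tested genes, as a grid of lines by genes with the value in each cell and a star where the adjusted p was under 0.05. Red is higher and blue lower than IM2. Tnfrsf1a and Gadd45b carry a star in all 4 columns, Pdcd4 and Aifm1 in 3.

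The moderated F test over the 5 lines called 6 of the 30 genes, with 10.2% of all probes called. These were Pdcd4 (adjusted p = 0.001767), Tnfrsf1a (0.002775), Pmaip1 (0.00846), Gadd45b (0.01242), Fas (0.01875) and Aifm1 (0.02465). Pmaip1 and Fas passed here and not in the comparison of all transfected lines with IM2.

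The mutant lines D7E and D7F were next compared with the wild-type lines WTA and WTD, each of them a single line. No listed gene passed limma's adjusted threshold, while 0.195% of all probes did (0.103% higher in the mutant lines and 0.0926% lower). At an unadjusted p under 0.05 there were 2 of 30 genes, no larger a share than the 649 of 9720 probes. They were Pmaip1 with a log2 difference of 0.32 (SE 0.10, p = 0.008142, adjusted p = 0.4683) and Bid, which links the death receptor and mitochondrial routes, with -0.41 (SE 0.18, p = 0.04546, adjusted p = 0.7355). The differences of the 30 genes ran from -0.41 to 0.73, with a median of -0.01 against 0.00 over all probes. Tnfrsf1a had 0.09 and Pdcd4 -0.05. Pabpn1 itself differed by -0.55 (SE 0.10, unadjusted p = 0.0001135, adjusted p = 0.05514) in this comparison, short of the adjusted threshold. Genotype therefore cannot be told apart from Pabpn1 level here.

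Between the high lines WTA and D7E and the low lines WTD and D7F, 1 listed gene passed, with 0.381% of all probes called (0.206% higher in the high lines and 0.175% lower). Pdcd4 was higher in the high lines, with 0.90 to 1.90 in WTA and D7E cultures and 0.15 to 0.85 in WTD and D7F cultures, which did not overlap. The log2 difference was 0.85 (SE 0.15, adjusted p = 0.03089), beside 0.73 (SE 0.10, adjusted p = 0.005765) for Pabpn1. The order of the line means was WTA, D7E, D7F, WTD and IM2 for Pdcd4 (1.52 ± 0.51, 1.06 ± 0.18, 0.63 ± 0.19, 0.26 ± 0.10 and -0.23 ± 0.12) and WTA, D7E, WTD, D7F and IM2 for Pabpn1 (SD, n = 3 each). For Pdcd4, WTA and D7E differed by less than the SD of WTA. The Pdcd4 call ended without any 1 of WTA cultures 1 and 3, WTD cultures 1, 2 and 3, D7E cultures 1, 2 and 3 and D7F cultures 1 and 3, at 0.75 to 0.89 (adjusted p = 0.05473 to 0.09534). At an unadjusted p under 0.05 there were 4 of 30 genes, beside 766 of 9720 probes. After Pdcd4 these were Mcl1 (-0.22), Tnfrsf1a (-0.18) and Gadd45a (0.25), with adjusted p-values of 0.4016 to 0.6245.

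The interaction of genotype and level was tested by setting WTD and D7E together against WTA and D7F together. Of the listed genes, 1 was higher and 1 lower, with 0.844% of all probes called higher and 1.52% lower (2.37% in all). Fas was lower in WTD and D7E, with a log2 difference of -0.44 (SE 0.08, adjusted p = 0.01191), and the cultures did not overlap. It averaged -0.43 ± 0.10 in WTD and -0.37 ± 0.02 in D7E, against 0.12 ± 0.18 in WTA and -0.02 ± 0.06 in D7F (SD, n = 3 each). Pmaip1 was higher in WTD and D7E, by 0.54 (SE 0.10, adjusted p = 0.01892). It had means of 0.61 ± 0.18 in WTD and 0.72 ± 0.23 in D7E, against -0.14 ± 0.07 in WTA and 0.39 ± 0.15 in D7F, and D7F culture 2, at 0.51, lay within the range of WTD and D7E. Pabpn1 had a difference of -0.03 (SE 0.10, adjusted p = 0.9263) in this split. The p53 target Zmat3 had -0.32 (SE 0.09, adjusted p = 0.09236), with cultures that did not overlap. Both calls ended with Cy3 arrays alone, with Cy5 arrays alone and where 1 dye orientation was enough, and that of Pmaip1 also with limit values kept, while neither ended on leaving out a culture.

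**Figure D4:**
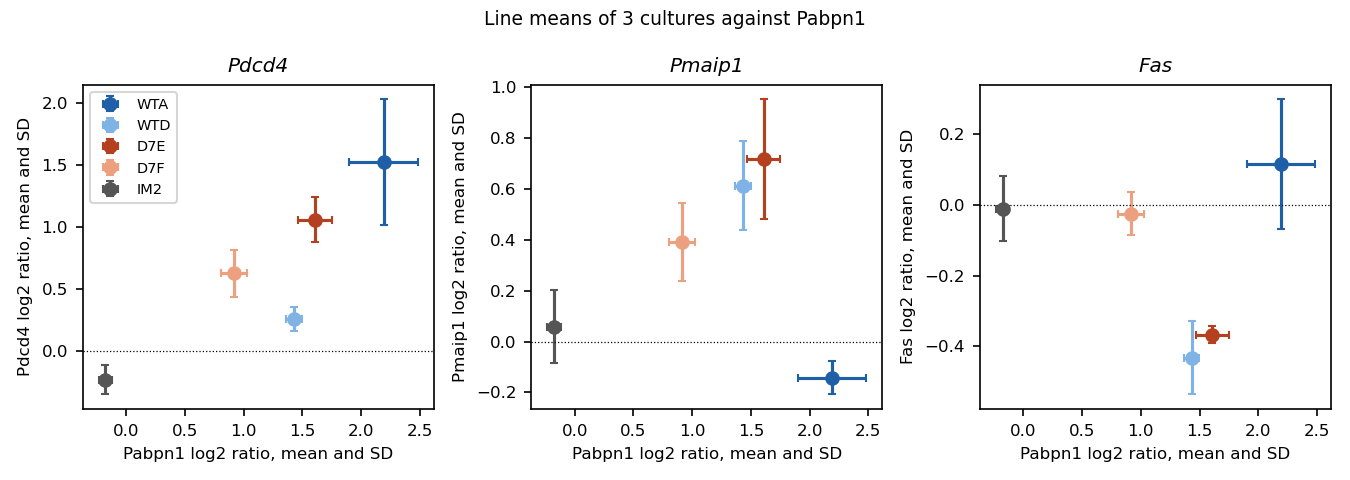
Mean log2 ratio of each line for Pdcd4, Pmaip1 and Fas (vertical axes) against its mean Pabpn1 log2 ratio (horizontal axes), with SD bars over 3 cultures. Pdcd4 is highest in WTA, the line highest in Pabpn1, whereas Pmaip1 and Fas in WTA lie at -0.14 and 0.12, away from WTD and D7E, whose Pabpn1 means of 1.43 and 1.61 are next to each other.

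Beyond the listed genes, 80 other apoptosis and p53 genes were followed, of which 50 were tested. In the transfected lines 4 were higher and 3 lower than in IM2, with a median of 0.10, beside 6.4% of all probes called higher and 8.83% lower. The 3 largest rises were those of Ppm1d, a phosphatase that restrains p53 signalling (0.91, adjusted p = 0.02616), Dapk3, a death-associated kinase (0.68, adjusted p = 0.01356), and Bag1, a co-chaperone that binds Bcl2 (0.66, adjusted p = 0.002917). The 3 genes that fell were Bnip3, the hypoxia-inducible relative of Bnip3l (-1.77, adjusted p = 5.549e-05), Sesn2, a stress-induced relative of Sesn1 (-0.58, adjusted p = 0.0179), and Mdm4, a p53 inhibitor (-0.40, adjusted p = 0.02428). Sesn1 rose and Sesn2 fell, a contrast between relatives that was not itself tested. Ppm1d had a value in only 2 IM2 cultures, -0.14 and -1.17, and without the lower one, IM2 culture 3, its difference was 0.39 (adjusted p = 0.4139, an alternative chosen after seeing the data, with 1 IM2 culture left). It was -0.40 with the IM2 sign turned, which also ended the calls of Dapk3 (0.19), Bag1 (0.13) and Sesn2 (-0.04). Leaving out IM2 culture 1 ended the calls of Dapk3 (0.51, adjusted p = 0.07519) and Mdm4 (-0.37, adjusted p = 0.08447), leaving out IM2 culture 3 that of Mdm4 (-0.40, adjusted p = 0.0604), and leaving out IM2 culture 2 that of Sesn2 (-0.44, adjusted p = 0.05537). With Cy3 arrays alone the calls of Ppm1d, Dapk3, Sesn2 and Mdm4 ended (adjusted p = 0.05443 to 0.3401), and with Cy5 arrays alone these and that of Bag1 (adjusted p = 0.06226 to 0.1849). Without the arrays of low quality those of Dapk3 (adjusted p = 0.09261) and Mdm4 (adjusted p = 0.128) ended, with the culture number as a block that of Ppm1d (adjusted p = 0.0635), and where 1 dye orientation was enough that of Mdm4 (adjusted p = 0.06283). The Bnip3 call held under all 27 other settings. None of the 50 passed between mutant and wild-type lines or between high and low lines. At an unadjusted p under 0.05 there were 6 in the first, beside 649 of 9720 probes, and 5 in the second, beside 766.

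Markers of cell types moved in the comparison of transfected lines with IM2, in which 6.4% of all probes were called higher and 8.83% lower. Of 12 muscle markers 11 were tested and 4 were higher in the transfected lines (Myf6, Chrna1, Myod1 and Tnnt3, median of the 11 at 0.31). Of 8 fibroblast markers the 4 tested were all lower (Col3a1, Col1a1, Col1a2 and Fbln2, at -1.44 to -1.03), and of 8 proliferation markers 4 were tested and Cdk1 (-0.85, adjusted p = 0.01416) and Mcm5 (-0.60, adjusted p = 0.04531) were lower. No leukocyte marker was tested. Ratios to a common IM2 reference give no levels, so the labels could not be checked against the presence of a marker. The part of these markers in the differences of the apoptosis genes was not tested.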

How the data were processed

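Total RNA of 15 cultures of 5 lines was measured on 60 spotted 2-colour arrays, 30 on each of 2 parts. The values the authors deposited are log ratios with no base stated, read here as log10 from their limits of -2 and 2. How spots were scanned, filtered and normalised is not given in the sources used here. Groups, culture numbers and dyes came from the titles and channel sources. Where they conflict on the dye (WTA culture 3, part I), the channel source decided, and for D7F culture 1 the title was used over a description that calls its level high.

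Values at a limit were taken as not measured, the rest multiplied by 3.3219 to log2, and both dye orientations averaged per culture. Rows with identical values were collapsed. Of 7600 and 14326 distinct probes on parts I and II, 6751 and 9887 had 1 gene symbol, 7 and 112 several and 733 and 4217 none, and 110 control probes with a human symbol were left out on each part. A probe was tested if each line had it in 2 or more cultures (9720 probes), with limma 3.58.1 in R 4.3.3 (lmFit and eBayes), each part on its own, all 5 lines in 1 model, and Benjamini-Hochberg adjustment over both parts. Scripts were tested on simulated data. The other settings tried were limits kept, centring and scaling, the IM2 sign turned, single dyes, other filters, the culture number as a block, other samples in the fit, the IM2 reference as baseline, and leaving out arrays of low quality (over 20% of filled values at a limit or under 70% of rows filled) or single cultures. Genes were given with all cultures if they passed any of 8 comparisons or the F test. A gene with several tested probes was represented by the probe measured in most cultures. The genes and lists were chosen with earlier results of these data known. Cultures of the same number did not deviate together and were not paired.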

Additional observations from a re-analysis of the deposited data

Results flagged for a closer look

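Of the listed genes, 2 showed an effect of level that differed between the genotypes, by the interaction term itself, fitted with limma over all probes. These were 6.67% of the 30 tested genes, beside 2.37% of all probes called. For Fas, WTD and D7E together differed from WTA and D7F together by -0.44 on the log2 scale (SE 0.08, adjusted p = 0.01191), with the 6 cultures of WTD and D7E all below the 6 of WTA and D7F. For Pmaip1 it was 0.54 (SE 0.10, adjusted p = 0.01892), with 1 culture of D7F within the range of WTD and D7E. Pabpn1 had -0.03 in the same comparison. Over alternative settings the differences ran from -0.52 to -0.40 for Fas (adjusted p = 0.003772 to 0.1366) and from 0.48 to 0.60 for Pmaip1 (adjusted p = 0.006204 to 0.2114). Because each genotype and level is 1 line, an interaction cannot be told apart from differences between single lines. The Fas dye orientations had the same sign in 9 of 12 transfected cultures, those of Pmaip1 in 11 of 12.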

How the results depend on the processing

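The 10 genes called in any comparison kept their direction, in the comparisons that called them and between transfected lines and IM2, under every setting run. Of the 30 tested genes, 12 changed sign between transfected lines and IM2 under at least 1 setting, 9 of them with the IM2 sign turned. For these 12 the differences ran from -1.32 to 0.92 (Apaf1), -1.34 to 1.95 (Bad), -0.76 to 1.27 (Bcl2), -0.62 to 0.17 (Bid), -0.08 to 0.92 (Birc2), -0.65 to 0.28 (Birc3), -0.22 to 0.22 (Btg2), -0.89 to 0.04 (Casp2), -0.42 to 0.07 (Casp8), -0.44 to 0.43 (Perp), -0.31 to 0.07 (Phlda3) and -0.25 to 0.15 (Zmat3). Of the other pathway genes named, Ppm1d changed sign, with -0.40 to 1.97. The calls of Tnfrsf1a and Gadd45b against IM2 over all transfected lines held under 27 of 27 settings, those of Pdcd4 and Aifm1 under 26 of 27, that of Sesn1 under 23 of 27 and that of Casp6 under 22 of 27. Counts of called genes moved more, and calls over all probes are given beside them, higher first and lower second. Transfected lines against IM2 gave 6 genes, 10 with the IM2 sign turned, 3 with Cy5 arrays alone and 18 against the IM2 reference itself, which leaves out the spread of IM2. Calls over all probes there were 622 higher and 858 lower, against 839 and 953 with the sign turned. They were 333 and 367 with Cy5 alone, and 2522 and 2245 against the reference. WTA against IM2 gave 7, 2 with arrays centred and scaled, 4 with Cy3 alone, 3 with Cy5 alone, 0 with only the compared lines fitted and 4 without arrays of low quality. All probes gave 502 and 619, 171 and 206 centred and scaled, 217 and 373 with Cy3 alone. With Cy5 alone they gave 119 and 169, with only the compared lines 0 and 1, and without arrays of low quality 171 and 251. WTD against IM2 gave 4, 7 with arrays centred and scaled, 1 with Cy5 alone or only the compared lines fitted, 9 against the reference itself, and 2 with limits kept, Cy3 alone, 1 dye orientation enough, probes measured in 1 culture of every line, or without arrays of low quality. All probes gave 202 and 481, 364 and 779 centred and scaled, and 75 and 145 with Cy5 alone. With only the compared lines they gave 30 and 140, and against the reference 648 and 934. The settings with 2 genes gave 57 to 183 higher and 154 to 346 lower. D7E against IM2 gave 7, 4 with Cy3 alone, 3 with Cy5 alone or without arrays of low quality, 1 with only the compared lines fitted and 11 against the reference. All probes gave 401 and 798, 150 and 327 with Cy3 alone, 138 and 283 with Cy5 alone. Without arrays of low quality they gave 167 and 483, with only the compared lines 31 and 143, and against the reference 949 and 1264. D7F against IM2 gave 4, 0 with Cy5 alone or only the compared lines fitted, 7 against the reference, and 2 with limits kept, arrays centred, Cy3 alone, 1 dye orientation enough, probes in 1 culture of every line, or without arrays of low quality. High against low gave 1 and 0 with limits kept, either dye alone, 1 dye orientation enough, probes in 1 culture of every line, only the compared lines fitted, the line as a random block, or without arrays of low quality. The interaction gave 2, 1 with limits kept and 0 with either dye alone or 1 dye orientation enough. The F test gave 6, 2 with Cy3 alone and 1 with Cy5 alone. Mutant against wild-type gave 0 under every setting run. The causes were not tested.

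With the culture number as a replicate block, D7F against IM2 gave 2 genes and high against low 0, and the other counts moved by at most 1. Same-numbered cultures correlated with r = -0.296 to 0.427 (part I) and -0.275 to 0.531 (part II), so the number is not taken as a pairing. Leaving out 1 culture gave 4 to 8 genes for transfected lines, 5 to 9 for WTA against IM2, 1 to 7 with WTD, 6 to 10 in D7E, 2 to 4 in D7F, 0 to 0 for mutant against wild-type, 0 to 1 for high against low, 2 to 3 for the interaction and 5 to 8 for the F test. With limits kept the median difference of all probes between transfected lines and IM2 was 0.118, against 0.03. Over all probes, 20 calls were higher and 17 lower in high against low (23 and 9 with arrays centred, 22 and 10 also scaled), and 10 and 9 in mutant against wild-type (10 and 15, and 8 and 17). The number of arrays and the 9 arrays of low quality limit the precision.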
